A study of Mus musculus with 6 samples.

Results

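The data described here are the expression levels of control-vector cells: Lin-Kit+Sca-1+ (KSL) bone marrow cells that had received an empty lentivirus. They come from 3 of the 6 arrays of the series, the ones labelled as control vector in their titles and numbered replicates 1 to 3, and the other 3 arrays, of cells given an Hlx lentivirus, were not used for any value. The cells were sorted from the marrow of young adult wild-type FVB/nJ mice and exposed to pCAD-IRES-GFP, a lentivirus that carries GFP alone, with 8 µg/ml polybrene. The IMDM held serum and 3 mouse cytokines, stem cell factor (SCF), IL-3 and IL-6, and the GFP+ cells were sorted after 2 days. All values are therefore those of cultured, virus-exposed and re-sorted cells, and uncultured or untransduced cells were not among the samples. RNA came from 5000 to 10000 cells per sample, and 3 ng was amplified before hybridisation. The labels do not say whether the replicates were separate mice or separate cultures, so the spread between them may be partly technical.

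KSL cells are the small fraction of marrow that holds the haematopoietic stem cells and the multipotent progenitors that descend from them. Stem cells in the animal are mostly quiescent, whereas cells placed in SCF with IL-3 and IL-6 enter the cycle and begin to differentiate, largely toward myeloid cells. Early progenitors are known to carry low levels of genes of several lineages before they commit to one. In bulk RNA such as this, a gene used strongly by few cells and a gene used weakly by many cannot be told apart.

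Of 19938 genes with a probeset of their own, 11078 (55.6%) lay above background in all 3 arrays, 7428 (37.3%) lay near background in all 3, and 1432 (7.18%) were mixed. Background was set in each array by 1237 sensory receptor genes (odorant, vomeronasal and taste receptors), which marrow cells are not known to need: their median level was 4.50 on the log2 scale, and their 95th percentile was 6.14, 6.28 and 6.24 in replicates 1, 2 and 3. This threshold is lenient, because 21 of 66 genes restricted to other tissues (31.8%) also passed it. A stricter threshold, the 95th percentile of those 66 genes, stood at 7.09, 7.11 and 6.92 and left 7043 genes (35.3%) above background. Counts under both thresholds are therefore given throughout, and a list of genes is read against 55.6% and 35.3%. Every value is a log2 level, a difference of 1 is 2-fold, and triplets of values follow the order of replicates 1, 2 and 3. A level compares one probeset between arrays well but mixes transcript abundance with probe binding when genes are compared: for the 999 genes with several probesets, the brightest and the dimmest differed by a median of 0.83 (quartiles 0.31 and 1.68). An order of genes below is an order of brightness on the array, and no value is per transcript length.

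**Figure D1:**
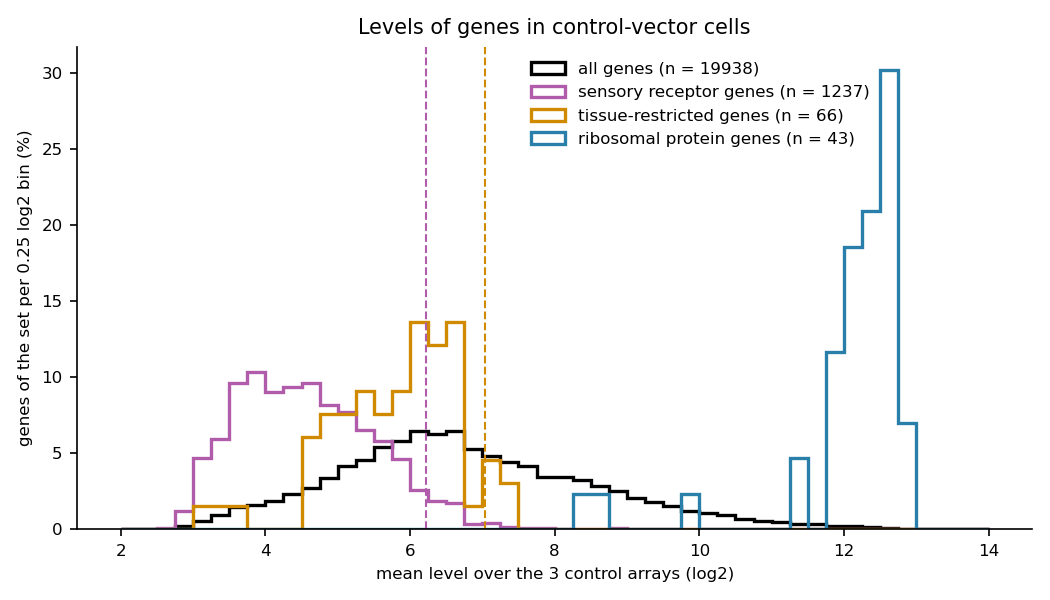
Distribution of mean log2 levels over the 3 control arrays, as the percent of each gene set per bin of 0.25, for all 19938 genes, 1237 sensory receptor genes, 66 tissue-restricted genes and 43 ribosomal protein genes. Dashed lines mark the sensory receptor threshold (left) and the tissue-restricted threshold (right), each averaged over the 3 arrays. Most ribosomal protein genes lie at the bright end, and the sensory receptor genes lie at the dim end.

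Of the positive markers of the sort only Kit could be read, and it was bright. Kit, the receptor for SCF, had levels of 9.20, 9.50 and 9.53 (mean 9.41 ± 0.18, SD, n = 3), brighter than 91.7% of genes. Cd34, a sialomucin of progenitors and endothelium, had 11.15, 11.26 and 11.21 (11.21 ± 0.05), brighter than 98.6% of genes. Mpo, the myeloperoxidase of the granules that granulocyte-monocyte progenitors make, had 8.46, 9.41 and 9.32 (9.06 ± 0.52), with replicate 1 below the other two. Sca-1 itself, the product of Ly6a, was not analysed here because no probeset was paired with that symbol alone. Hlx, the homeobox gene the series is about, was dimmer than Kit, Cd34 and Mpo at 6.99, 7.29 and 7.62 (7.30 ± 0.32). It was past the sensory receptor threshold in all 3 arrays but short of the stricter one in replicate 1. Of the antigens by which mature cells are removed before such a sort, 8 were measured. Ptprc, which encodes the pan-leukocyte antigen CD45 and so its B220 form, was the only one past the stricter threshold, at 9.80, 9.67 and 9.68. Cd8a and Cd3e lay between the thresholds, Cd5 (7.20, 6.61 and 6.68) passed the stricter one in replicate 1 alone, and Cd4, Ly6g (the Gr-1 antigen) and Il7r were near background, with Ly6g at 4.88, 4.96 and 4.88. Itgam, the Mac-1 subunit of myeloid cells, exceeded the sensory receptor threshold in replicate 1 alone.

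**Figure D2:**
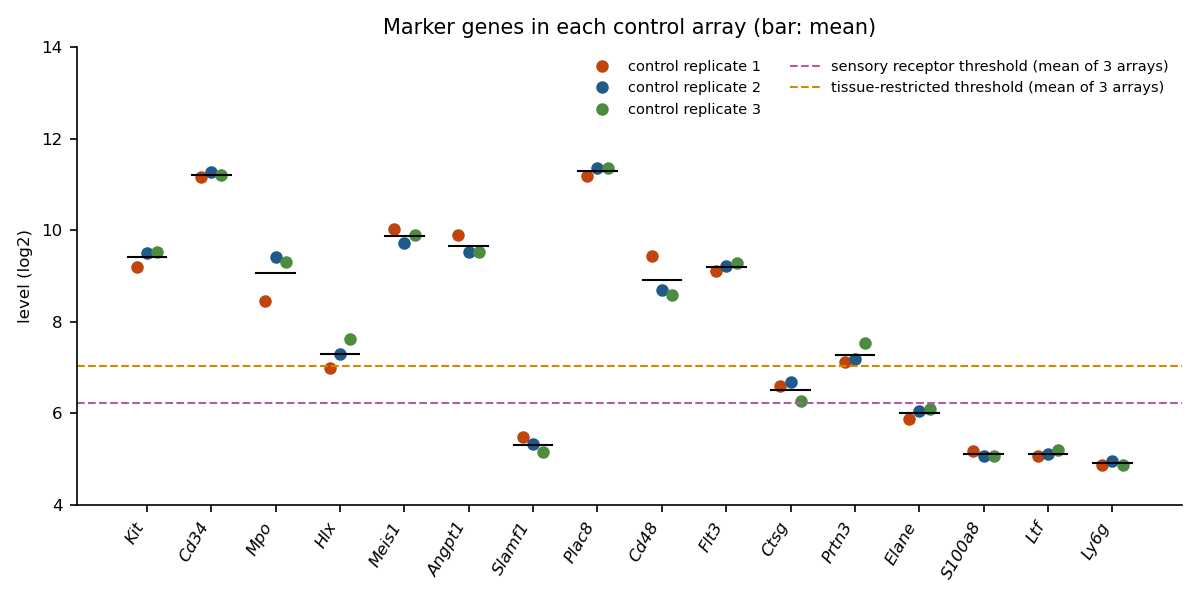
Log2 levels of 16 marker genes in each control replicate (coloured points) with their mean (black bar), from sort and progenitor genes at the left to mature granulocyte genes at the right. Dashed lines mark the sensory receptor threshold (lower) and the tissue-restricted threshold (upper), averaged over the 3 arrays. Cd34 and Plac8 are brightest, and Slamf1, Elane, S100a8, Ltf and Ly6g lie below both lines in every replicate.

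Genes of long-term stem cells were split between bright and dim. Of 32 measured, 23 were above background, a larger share than the 55.6% over all genes. The stricter threshold was passed by 12, near the 35.3% over all genes. Near background were 3, and the median level was 7.08. The brightest were Meis1, a homeobox cofactor of HOX proteins, at 10.03, 9.73 and 9.89, and Angpt1, the ligand of the receptor Tek, at 9.89, 9.53 and 9.53. Cd93 and Mllt3, a chromatin reader that maintains stem cells, followed at means of 9.51 and 9.44, and Hlf, a transcription factor of the most primitive cells, had 9.74, 9.23 and 9.14. By contrast, Slamf1, which encodes the CD150 antigen of long-term stem cells, was near background at 5.48, 5.32 and 5.15. Esam (5.95 mean) and Clec1a (4.75 mean) were also near background. Between these, Procr (the CD201 antigen) had 6.99, 6.97 and 6.69 and Mecom 7.54, 7.11 and 7.37, above the sensory receptor threshold but not above the stricter one in every array. Ctnnal1 varied most among the brighter members, at 8.35, 7.36 and 6.90, and Ndn, a growth suppressor of quiescent cells, had 6.49, 7.55 and 6.83.

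Multipotent progenitor genes were above background without exception, 17 of 17, with 16 past the stricter threshold and a median of 9.18. Plac8 was the brightest at 11.17, 11.36 and 11.37, followed by Cd34. Flt3, the receptor of lymphoid-primed progenitors, was even across replicates at 9.12, 9.21 and 9.29, and so was the integrin subunit Itga4 at 9.12, 9.11 and 9.16. Cd48, which long-term stem cells lack and their progeny carry, was highest in replicate 1 (9.44, against 8.69 and 8.58). Cd33, a myeloid lectin, ran the other way at 7.87, 8.44 and 8.58. Satb1, a chromatin organiser of lymphoid progenitors, was the dimmest member at 7.45, 6.68 and 7.25.

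Among transcription factors that build blood cells, 40 of 44 were above background and 25 passed the stricter threshold. Runx3 (10.09, 10.58 and 10.78), Bcl11a (10.64, 10.12 and 10.12), Ldb1 (10.33, 10.17 and 10.18) and Myb (10.12, 10.13 and 10.22) were the brightest. Spi1, which encodes the myeloid and B-cell factor PU.1, differed between replicates, at 8.44, 8.77 and 9.43. Gata2 of stem and mast cells and Cebpa of the granulocyte-monocyte branch had means of 7.90 and 7.80. The lineage-restricted factors were dimmer: Gata1 and Klf1, which direct red cell formation, had means of 6.68 and 6.35, Pax5 of B cells 6.49, Gata3 6.66 and Bcl11b of T cells 6.45, all between the thresholds. Ebf1, the early B-cell factor, was near background at 4.64, 4.75 and 4.96, as were Ikzf3 and Cebpd.

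The primary granule list was above background more often than the mature granulocyte list, with exceptions in both. Primary granule genes, made at the promyelocyte stage, were above background for 15 of 20, with 13 past the stricter threshold and a median of 7.84. Srgn, the proteoglycan that packs granule proteins, had 11.50, 11.43 and 11.48. Calr, a chaperone for myeloperoxidase that all cells use, had 11.13, 11.11 and 11.01. Cst7 and Ctsc, which encode an inhibitor and the activator of granule proteases, had means of 8.99 and 8.96. The proteases themselves were dimmer than these. Prtn3 had 7.13, 7.19 and 7.53, past the stricter threshold, and Ctsg 6.60, 6.68 and 6.28, past the sensory receptor threshold alone. Elane, neutrophil elastase, was near background at 5.89, 6.06 and 6.09. Ms4a3 of granulocyte-monocyte progenitors had 7.56 in replicate 1 against 8.59 and 8.65, and the lectin receptor Clec12a had 5.61 against 7.77 and 8.45, so that these and Mpo were lowest in the same array. Nkg7 ran the other way, at 9.11, 7.85 and 8.31.

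Genes of mature granulocytes were mostly near background: 7 of 24 were above it, 3 passed the stricter threshold, 16 were near background and the median was 5.44. S100a8, a subunit of neutrophil calprotectin, had 5.18, 5.08 and 5.07, Ltf (lactoferrin) 5.07, 5.11 and 5.20, and Chil3 3.78, 3.68 and 3.51. The 3 members past the stricter threshold were Ncf1 (9.14, 9.47 and 9.37) and Cybb (8.60, 8.56 and 9.35), subunits of the phagocyte oxidase that monocytes share, and Pglyrp1 (8.42, 7.92 and 7.75).

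The promoters of an early granule gene and a late one are shown because the same lineage uses both while only the first was bright here. Each is the 250 bases before the gene's start in RefSeq on GRCm38.p6, 5′ to 3′, with the letters of 7 motifs searched on either strand in capitals. The motifs were TATAAA (the TATA box), CCAAT (the box bound by NF-Y), GGGCGG (an SP1-type GC box), CCGGAAG (an ETS core), CACGTG (an E-box), GAGGAAGT (a PU.1-type core) and a pair of TTTC separated by any 2 bases (an interferon response core).
Mpo, chr11:87793534-87793783, plus strand: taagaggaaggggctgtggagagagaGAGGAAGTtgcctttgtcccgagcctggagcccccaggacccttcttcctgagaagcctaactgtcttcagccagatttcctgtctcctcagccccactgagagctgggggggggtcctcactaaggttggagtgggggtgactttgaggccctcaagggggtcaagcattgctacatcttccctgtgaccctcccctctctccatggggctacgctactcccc
S100a8, chr3:90668821-90669070, plus strand: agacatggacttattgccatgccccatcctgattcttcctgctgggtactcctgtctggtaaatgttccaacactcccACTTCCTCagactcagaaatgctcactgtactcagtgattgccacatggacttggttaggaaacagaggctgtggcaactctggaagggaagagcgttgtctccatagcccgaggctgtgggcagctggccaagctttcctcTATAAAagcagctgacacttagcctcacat
Both windows held GAGGAAGT, beginning 224 bases before the start in Mpo and, on the other strand, 172 bases before it in S100a8, and S100a8 alone had a TATAAA, beginning 30 bases before its start. GAGGAAGT occurred in the promoters of 4 of 17 primary granule genes (23.5%) and 3 of 22 mature granulocyte genes (13.6%), against 2.74% of all 15562 promoters matched, counted over 250 bases before to 50 after the start. A match describes letters and is not evidence of binding.

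Monocyte and macrophage genes were split: 12 of 25 were above background and 7 passed the stricter threshold, both below the shares over all genes. The bright ones are shared by many immature myeloid cells. Tyrobp, the signalling adaptor DAP12, had 9.61 in replicate 1 against 10.99 and 11.03. Ctss, a lysosomal protease, had 9.85, 9.54 and 10.08, Cd68 9.17, 8.95 and 9.33, and Mpeg1 8.61, 8.63 and 8.98. Of the genes of resident macrophages, Marco and Timd4 were mixed and the dimmest were Mrc1 at 4.36, 4.36 and 4.41, Vsig4 at 4.81, 4.50 and 4.47 and Adgre1, the F4/80 antigen, at a mean of 4.67. Cd14 had 6.50 in replicate 1 against 7.60 and 7.38. Csf1r, the M-CSF receptor, had 6.28, 6.48 and 6.37.

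Among dendritic cell and MHC class II genes, 11 of 21 were above background and 7 passed the stricter threshold, both near the shares over all genes. Several class II genes were bright: H2-Aa had 9.90, 9.72 and 10.07, the invariant chain Cd74 10.18, 9.20 and 10.10, and H2-DMa, which loads peptides, 9.55, 9.45 and 10.33. H2-Eb1 was dimmer, at 7.11, 7.11 and 7.16, and did not pass the stricter threshold in every array. Ciita, the transactivator of those genes, had 7.39, 6.97 and 7.67. Replicate 2 was the lowest for 14 of the 21 members. Genes of conventional dendritic cells were dim. Zbtb46, their transcription factor, lay between the thresholds at 6.27, 6.45 and 6.37, Batf3 and Itgax were mixed, and those near background included Clec9a at 3.86, 3.81 and 4.04, Xcr1 at 4.93, 5.12 and 4.96 and Cd209a at a mean of 5.66.

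Of the red cell genes, 12 of 22 were above background, near the share over all genes. Past the stricter threshold were 3 of them, below the share over all genes. Those 3 were Tfrc, the transferrin receptor that dividing cells of any type use, at 10.12, 10.17 and 10.22, the carbonic anhydrase Car2 at 9.71, 9.90 and 9.74, and Hemgn at 9.32, 8.78 and 8.49. Blood group and membrane genes were dim but uneven: Ermap (6.81 mean), Aqp1 (6.61 mean), Slc4a1 (6.51 mean) and Sptb (6.42 mean) lay between the thresholds, Icam4 was mixed, and Rhag (3.84 mean), Kel (4.78 mean) and Epb42 (5.31 mean) were near background. Epor, the erythropoietin receptor, had 6.60, 6.53 and 6.59.

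Megakaryocyte genes were above background for 14 of 19, a larger share than over all genes. Past the stricter threshold were 7, near the share over all genes. Plek (9.77, 9.63 and 9.86) and the thrombin receptor F2r (9.56, 9.48 and 9.56) were even across replicates. Pf4, the platelet factor 4 chemokine, had 10.73, 8.74 and 9.40, and the integrin subunit Itgb3 had 9.38, 8.25 and 8.22, both highest in replicate 1. Clec1b, a receptor of late megakaryocytes and platelets, was near background at 4.09, 4.18 and 4.25.

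Mast cell, basophil and eosinophil genes were mostly near background. Of 23 mast cell and basophil genes, 5 were above background and 2, Slc18a2 and Gata2, passed the stricter threshold. Fcer1a and Ms4a2, subunits of the high-affinity IgE receptor, had means of 4.25 and 4.42. The mast cell carboxypeptidase Cpa3 had 7.47 in replicate 1 against 4.99 and 5.10, and Gzmb had 7.66 against 5.33 and 5.42. Il13 had 7.05, 7.22 and 7.26. For eosinophils, 1 of 8 was above background (Siglecf, 6.95 mean), and Epx, the eosinophil peroxidase, was near background at 5.25, 5.20 and 5.11.

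Lymphoid genes were below the shares over all genes. Of 22 B lymphoid genes 8 were above background and 2 passed the stricter threshold, and of 29 T and NK cell genes the counts were 8 and 1. The brightest B lymphoid genes were Cd79b at 8.49, 7.63 and 7.86 and the surrogate light chain gene Vpreb1 at 7.96, 7.29 and 7.55, whereas Cd79a, whose product pairs with that of Cd79b, was near background at 4.06, 4.57 and 4.19. Rag2, a subunit of the V(D)J recombinase, was also near background at 4.06, 4.17 and 3.79. In the T and NK list Lat, an adaptor shared with megakaryocytes and mast cells, had 8.84, 8.52 and 8.57, and Cd3g was near background at 4.40, 4.49 and 4.46. Stromal, endothelial and osteoblast genes were above background for 8 of 25, with 2 past the stricter threshold: Pecam1, which blood cells also carry, at 8.75, 8.46 and 8.59, and Col1a1 at 7.16, 7.22 and 7.30. Eng, of endothelium and stem cells, lay above the sensory receptor threshold at 7.69, 7.04 and 7.67, and Cxcl12, Lepr, Kdr and Cdh5, of niche and endothelial cells, were near background, the first at 5.47, 5.63 and 5.53.

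**Figure D3:**
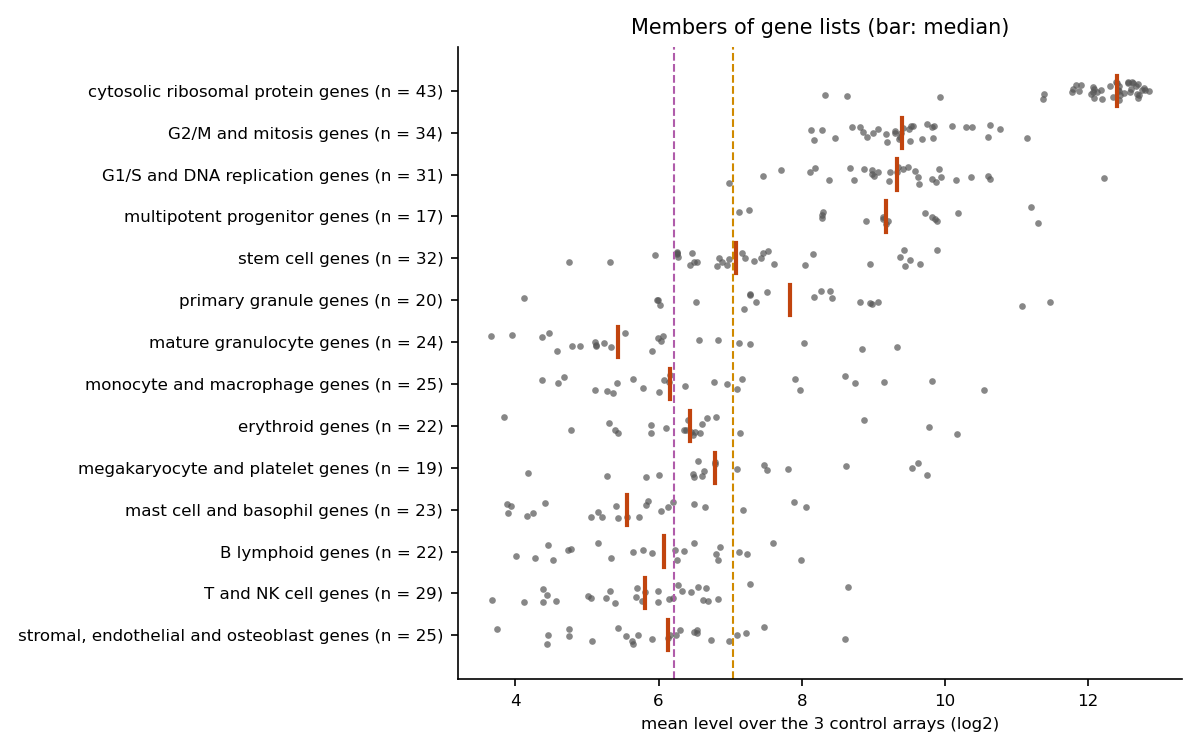
Mean log2 level over the 3 control arrays of each measured member (points) of 14 gene lists, with the list's median (bar); vertical position within a line is arbitrary. Dashed lines mark the sensory receptor threshold (left) and the tissue-restricted threshold (right). Ribosomal protein, cell cycle and multipotent progenitor genes lie right of both lines almost throughout, and the medians of the mature granulocyte, mast cell, B lymphoid and T and NK cell lists lie left of both.

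The machinery of protein synthesis was the brightest group on the arrays. Ribosomal protein genes made up 18 of the 25 brightest genes that could be named and 39 of the brightest 100. This order rests on the brightest probeset of each gene. With the median of a gene's probesets, Rplp0 fell from 12.85 to 12.29, Rpl23 from 12.68 to 11.93 and Rpsa from 12.62 to 11.89. Others, such as Rps20, Rpl37a and Rpl4, did not change. All 43 on the list passed the stricter threshold, at a median of 12.40. Rplp0, of the ribosomal stalk, had 12.83, 12.87 and 12.84, and Rps20 12.78, 12.80 and 12.79. Rpl30 (8.64 mean) and Rpl34 (8.32 mean) were the dimmest. Eef1a1, the elongation factor that carries tRNA to the ribosome, had 12.98, 12.99 and 13.08, and Pabpc1, the poly(A)-binding protein, 12.57, 12.61 and 12.58. The others among the 25 were Tmsb10, which sequesters actin monomers, Actb, the splicing factor Srsf3, the histone variant gene H2az1 and Baiap2l1. Baiap2l1, an adaptor between membrane and actin, was the brightest gene of all at 13.07 ± 0.06, but this rests on 1 of its 3 probesets: the other two had means of 11.58 and 5.34. Translation factors (17 of 17) and ribosome biogenesis genes (21 of 22) passed the stricter threshold, with Npm1 at 12.09, 11.99 and 11.92 and the nucleolar methyltransferase Fbl at 11.65, 11.66 and 11.74.

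Cell cycle genes were bright in every replicate. Of 31 genes of the G1/S transition and DNA replication, all were above background and 30 passed the stricter threshold, at a median of 9.33. Pcna, the sliding clamp of replication, had 12.29, 12.20 and 12.19, Mcm6 of the replicative helicase 10.65, 10.73 and 10.50, and Cdt1, the licensing factor, was the dimmest at 7.01, 6.90 and 7.06. Of 34 genes of G2 and mitosis, all passed the stricter threshold, at a median of 9.40. Top2a, which untangles sister chromosomes, had 11.09, 11.24 and 11.12, Birc5 10.84, 10.65 and 10.83, Mki67, the proliferation antigen, 10.29, 10.56 and 10.30, and Foxm1, the transcription factor of this programme, 7.85, 8.35 and 8.20. Inhibitors of the cycle were present too: 14 of 15 were above background and 9 passed the stricter threshold, with Cdkn1b (p27) at 8.16, 8.04 and 8.22 and Cdkn1c (p57), an inhibitor of quiescent stem cells, at 6.77, 6.97 and 6.71. Cdkn2c (p18) had 5.67 in replicate 2 against 7.11 and 7.27.

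The promoters of a ribosomal protein gene and a mitosis gene are shown as those of bright groups, with the same letters searched and in capitals, the 250 bases before the start on GRCm38.p6.
Rplp0, chr5:115559217-115559466, plus strand: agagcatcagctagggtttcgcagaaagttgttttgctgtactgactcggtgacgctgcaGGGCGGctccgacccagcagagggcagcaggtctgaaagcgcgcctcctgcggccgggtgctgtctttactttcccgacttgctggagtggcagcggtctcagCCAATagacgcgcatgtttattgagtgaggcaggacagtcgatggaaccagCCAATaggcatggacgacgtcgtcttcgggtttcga
Top2a, chr11:99024190-99024439, minus strand: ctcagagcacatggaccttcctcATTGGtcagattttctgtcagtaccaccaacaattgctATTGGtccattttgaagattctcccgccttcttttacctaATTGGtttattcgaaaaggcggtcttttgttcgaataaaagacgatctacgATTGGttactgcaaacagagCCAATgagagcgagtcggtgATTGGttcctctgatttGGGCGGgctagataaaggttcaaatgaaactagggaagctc
Top2a held 6 CCAAT boxes in this window, 5 of them written as ATTGG because they lie on the other strand, and 1 GC box. CCAAT occurred in 21 of 28 promoters of the G2 and mitosis genes (75%), against 38.3% of all promoters and 38.1% of those of genes above background. CCGGAAG occurred in 14 of 35 promoters of ribosomal protein genes (40%), against 12.5% of all. Its share was 18.4% for genes above background and 25.6% for the brightest 10% of genes. The Rplp0 window shown did not hold it.

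Across all genes, several promoter motifs differed in frequency between bright and dim genes. GGGCGG occurred in 64.0% of the promoters of genes above background and 27.4% of those near background, and CCGGAAG in 18.4% and 3.71%. TATAAA was found in 6.99% and 20.4%, but its frequency was not lowest at the bright end, with 7.50% in the brightest 10% of genes and 14.3% in the brightest 1%. CCAAT hardly differed, at 38.1% and 39.0%. The observed over expected frequency of CpG fell from a median of 0.85 in the brightest 10% of genes to 0.16 in the dimmest 10%. It was 0.09 for Mpo and 0.21 for S100a8 but 0.93 for Rplp0 and 0.94 for Top2a. These shares are descriptions over genes that differ in many other ways, base composition among them. The sensory receptor genes that set the threshold stayed in the compared sets. Of these 1237 genes, 49 were above background, and their median level of 4.50 lay within the dimmest 10% of genes. Their part in the differences was not tested.

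Energy metabolism and protein folding genes were also bright. All 24 measured genes of the electron transport chain passed the stricter threshold, at a median of 10.53, with the cytochrome oxidase subunit Cox6c at 12.49, 12.35 and 12.40. Glycolysis genes were above background for 19 of 21, with 18 past the stricter threshold and a lower median of 7.94. Hk1 (11.77, 11.72 and 11.90) and Pgk1 (11.70, 11.71 and 11.57) were the brightest, Ldha had 10.01, 9.79 and 9.80, and the tissue-specific enolase Eno2 was near background at 5.74, 6.11 and 6.11. Of 17 cholesterol synthesis genes all were above background and 14 passed the stricter threshold, with Fdps at 9.37, 9.14 and 9.59 and Lss at 6.57, 6.33 and 6.91. Constitutive chaperones were bright, with Hspa8 at 12.36, 12.33 and 12.28, while the stress-inducible Hspa1a had 6.86, 6.80 and 7.06 and Hspb1 5.81, 6.08 and 6.25. In the unfolded protein response list, 23 of 24 were above background and 21 passed the stricter threshold, with the chaperone Hsp90b1 at 12.04, 11.99 and 12.01, Ddit3 (CHOP) at 8.54, 8.27 and 8.69 and Atf3 near background at 5.94, 6.05 and 6.24.

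The receptors for the cytokines in the medium were all measured above both thresholds, 6 of 6. Besides Kit they were Il3ra (7.68, 7.75 and 8.03), the shared chain Csf2rb (8.48, 8.48 and 9.01) and its mouse IL-3-specific relative Csf2rb2 (7.38, 7.39 and 7.50), Il6ra (7.24, 7.77 and 7.53) and Il6st, which encodes the signalling chain gp130 (9.01, 8.16 and 8.30). Csf2rb and Csf2rb2 are near-identical genes, so their probes may share signal. Of 32 other cytokine receptors, 24 were above background and 17 passed the stricter threshold. Ifnar2, a chain of the type I interferon receptor, was the brightest at 10.12, 10.14 and 10.16, and the chemokine receptor Cxcr4 had 9.56, 9.93 and 9.96. Il7r, Il5ra and Cxcr2, receptors of lymphoid cells, eosinophils and neutrophils, were near background. Among genes that such cytokines induce, 24 of 25 were above background and 16 passed the stricter threshold. Myc had 10.90, 11.01 and 11.12, Ccnd2 10.60, 10.43 and 10.84, Socs2 9.01, 8.70 and 9.15, and Cish, a feedback inhibitor of STAT5 signalling, 7.69, 7.57 and 7.82. Osm was mixed at 6.11, 5.95 and 6.27.

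Inflammatory and stress genes were uneven. Of 25 NF-kB and inflammatory genes, 17 were above background and 13 passed the stricter threshold. Ccl5 was the brightest, at 9.96, 10.33 and 10.79, and Tnf had 7.51, 7.53 and 8.19. Il6 (4.38, 4.42 and 4.03), Il1a (4.29, 4.22 and 4.21) and Cxcl2 (4.33, 4.49 and 4.31) were near background. Immediate early genes, which handling can raise within minutes, were above background for 14 of 20 and past the stricter threshold for 4, Ier3, Jund, Klf6 and Egr3, and Fos was near background at 5.78, 5.81 and 5.77. Among p53 targets, 12 of 15 were above background and 10 passed the stricter threshold, with Ccng1 at 10.92, 10.66 and 10.95 and Mdm2 at 9.12, 8.69 and 8.49.

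The HOX genes above background came, but for 1, from the A and B clusters. Of 46 measured HOX cluster and cofactor genes, 17 were above background and 8 passed the stricter threshold, both below the shares over all genes. Near background were 24. After Meis1, the brightest were Hhex at 9.08, 9.14 and 9.21, Hoxa4 at 7.91, 8.43 and 8.09 and Pbx2 at 8.00, 7.44 and 7.86. Hoxa9 had 7.40, 7.02 and 7.07, and Hoxb4, long used to expand stem cells in culture, 7.10, 7.70 and 7.55. From the C and D clusters, Hoxc9 (6.24, 6.40 and 6.32) was the only measured member above background in all 3 arrays, and it was below the stricter threshold. Chromatin regulators were above background for 32 of 32, with 28 past the stricter threshold: Hdac2 had 11.18, 11.08 and 11.03, the maintenance DNA methyltransferase Dnmt1 11.12, 11.08 and 11.07, and Ezh2 10.74, 10.73 and 10.72, while Cbx8 was the dimmest at 6.29, 6.96 and 6.37.

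The X-linked transcript Xist had 10.80, 10.95 and 10.87. Of the Y-linked genes, Kdm5d, Zfy1, Uty and Eif2s3y were near background in every array, Eif2s3y at 3.07, 3.27 and 3.18. Sry, a gene of the embryonic testis, had 7.62, 7.80 and 8.09, above both thresholds and unlike the other Y-linked genes. Whether this signal came from Sry transcript was not tested.

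The 3 replicates were close. Over 19938 genes the median SD between them was 0.13, which is 1.10-fold, and it was 0.15 for genes above background and 0.10 for those near it. The SD exceeded 0.42 for 5% of genes and exceeded 0.5 for 566 genes. Pearson's r over genes was 0.984 between replicates 1 and 2, 0.985 between 1 and 3, and 0.987 between 2 and 3, a description over genes that are not independent replicates. Of the genes above background, 309 (2.79%) had a range over 1 between their highest and lowest array. The spread depended on brightness: its median was 0.11 in the brightest 10% of genes, reached 0.19 in the third 10%, and fell to 0.10 in the dimmest. It was 0.03 over the 100 brightest genes and over the ribosomal protein genes.

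**Figure D4:**
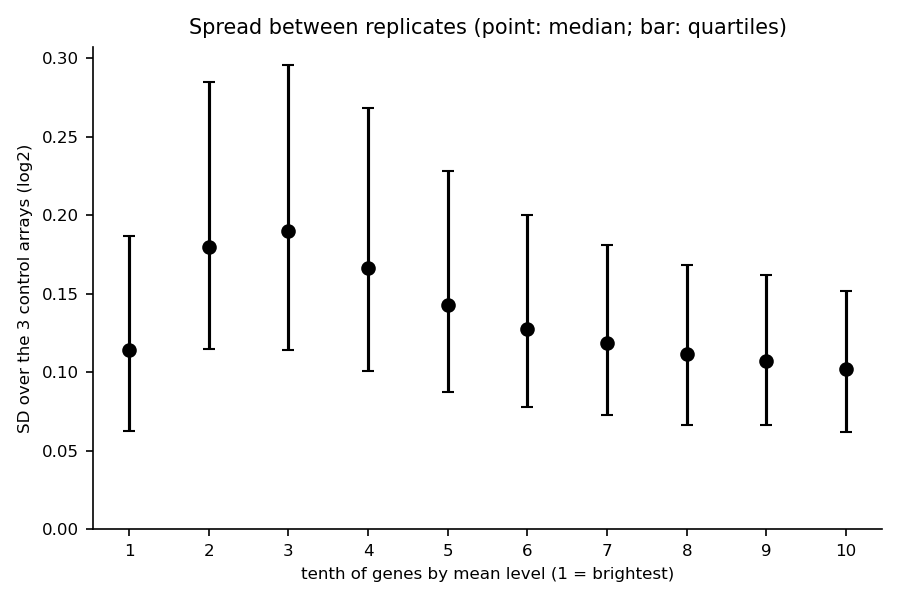
SD over the 3 control arrays, in log2 units, for genes in 10 equal groups by mean level from brightest (1) to dimmest (10); points are medians and bars run from the lower to the upper quartile. The median is highest in group 3, at 0.19, and lowest in the last group, at 0.10.

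The widest spreads among named genes above background were in Slc14a1, a urea transporter, at 6.56 and 6.86 in replicates 2 and 3 and 2.44 above the first of these in replicate 1, Tmem243 at 6.80, 7.46 and 9.18, Rtp4, an interferon-induced chaperone of receptors, at 10.09, 8.32 and 7.74, and the chemokine Ccl17 at 8.36, 7.95 and 10.05. Tjp1, the tight junction protein ZO-1 (6.40, 8.36 and 7.99), and Hpgds, the prostaglandin D synthase of mast cells and megakaryocytes (6.55, 7.87 and 8.60), were low in replicate 1. Cd300c, a receptor of myeloid cells, was low there too, at 6.45 against 8.31 and 7.87. The other members of the 15 with the largest SD were Pf4, Mosmo, Prdx4, Gstm4, Mtx3, Fam126b, Gsta4 and Pithd1. No single array held all the extremes. Outside that ranking, because it was below background in replicate 1, Prkch, a protein kinase C, had 5.03, 10.36 and 10.08, the largest SD of all 19938 genes (3.00), but its second probeset had 7.43, 7.52 and 7.17. Prkch was chosen after its values were seen.

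Replicate 1 stood apart more often than the other two. A gene counted as higher had to pass the sensory receptor threshold in that array, and a gene counted as lower in both others. In replicate 1, 81 genes were more than 1 above both other arrays and 24 more than 1 below both. The counts were 26 and 26 for replicate 2 and 23 and 19 for replicate 3. Above background in all 3 arrays were 42 of the 81 and 14 of the 24, against 13 and 18 for replicate 2 and 12 and 14 for replicate 3. Of the 81, 11 were on the list of interferon response genes. Among these, Iigp1, Ifit1, Ifit3, Irf7 and Mx2 passed the sensory receptor threshold in replicate 1 alone. The interferon list had 31 measured members, 21 above background and 13 past the stricter threshold. Like the other lists, it was chosen with earlier results of these data known. Its members were highest in replicate 1 for 29 of 31 and lowest in replicate 2 for 23, and 17 had a range over 1. Replicate 1 exceeded replicate 2 by a median of 1.01, with 31 of 31 higher, and exceeded replicate 3 by 0.78, with 29 of 31 higher. The median of replicate 2 minus replicate 3 was -0.20, and no member differed by more than 1 between them. The median SD of the list was 0.63, against 0.13 over all genes. With 1 array on one side there is no test of such a difference, and its cause was not tested.

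Within the interferon list, the widest gaps between replicate 1 and both other arrays were those of Iigp1, an interferon-inducible GTPase (7.73, 5.13 and 5.58), and Rtp4. Among effectors and sensors of the antiviral response, Oasl2 had 9.34, 7.82 and 7.62, Isg20, an exonuclease, 9.12, 7.49 and 7.48, Usp18, which removes ISG15 from proteins, 8.49, 6.64 and 7.59, and Zbp1, a nucleic acid sensor, 7.84, 5.99 and 6.31. Irf7, the transcription factor that amplifies the response, had 7.49, 5.98 and 6.10. Trim30a, the brightest member, differed less, at 10.63, 10.10 and 10.16, and Oasl1, Cmpk2, Ifit2 and Rsad2 had ranges under 0.5. The interferon receptor genes differed little between arrays, with Ifnar1 at 7.99, 7.68 and 8.01. The lists of other cell types differed in how they ran in replicate 1. Of 20 primary granule genes 9 were highest and 8 lowest there, Nkg7 and Cst7 among the former and Mpo, Ms4a3 and Clec12a among the latter, and the median deviation was 0.02. Of 25 monocyte and macrophage genes 6 were highest and 10 lowest there, Tyrobp and Cd14 among the latter. Their median deviation there was -0.04 over all members and -0.15 over those above background. Of 19 megakaryocyte genes 9 were highest, Pf4 and Itgb3 among them, and 4 lowest. In the mast cell and basophil list, Cpa3 and Gzmb exceeded the higher of the other arrays by 2.38 and 2.25. That list's median deviation was 0.04. The part of such genes in the interferon result was not tested.

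**Figure D5:**
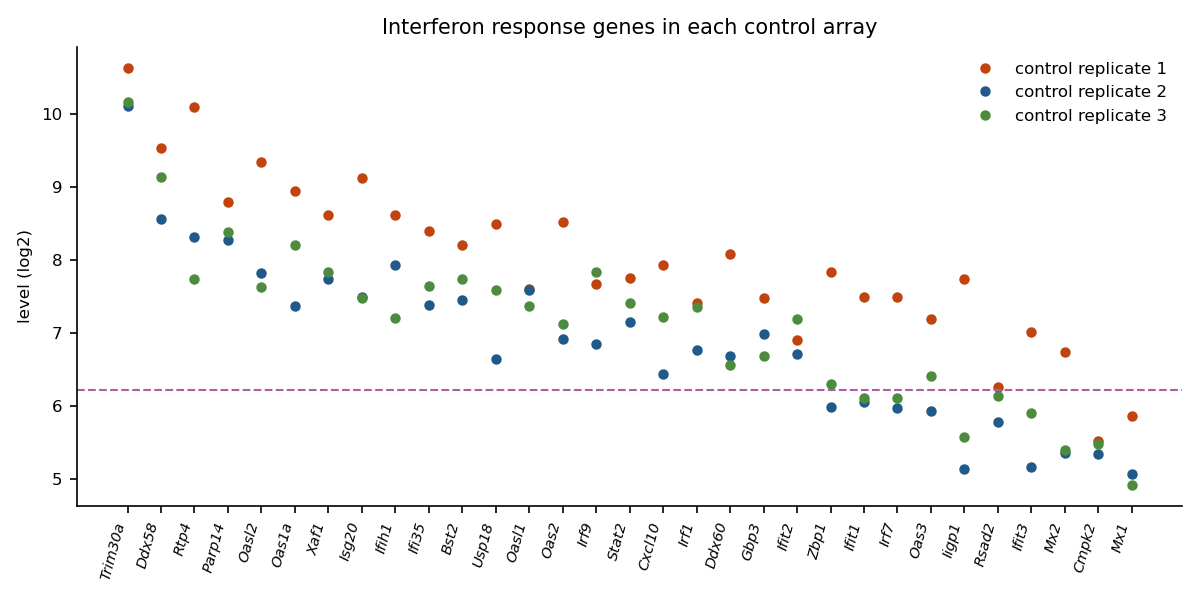
Log2 level of 31 interferon response genes in each control replicate (coloured points), ordered by mean level; the dashed line is the sensory receptor threshold averaged over the 3 arrays. Replicate 1 is the highest point for 29 of the 31 genes.

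Interferon response genes are known to share the response element bound by the STAT and IRF complex, and its core, a pair of TTTC separated by 2 bases on either strand, was looked for after the pattern had been seen. It occurred in 13 of the 23 promoters matched (56.5%), against 3.32% of all. The stretches that hold it, before the start on GRCm38.p6 and with the core in capitals, were as follows for genes with a wide and a narrow gap between replicate 1 and the others.
Ifit1, chr19:34640770-34640828, plus strand: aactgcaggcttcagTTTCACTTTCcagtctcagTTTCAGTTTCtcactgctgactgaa
Ddx60, chr8:61928053-61928086, plus strand: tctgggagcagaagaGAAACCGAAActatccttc
Oas1a, chr5:120907526-120907560, minus strand: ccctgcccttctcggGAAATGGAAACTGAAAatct
Bst2, chr8:71537572-71537617, minus strand: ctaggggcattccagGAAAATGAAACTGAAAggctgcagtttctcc
Stat2, chr10:128270261-128270300, plus strand: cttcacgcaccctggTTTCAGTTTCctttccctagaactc
Rsad2, chr12:26456548-26456587, minus strand: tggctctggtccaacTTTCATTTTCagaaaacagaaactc
Ifit1 had 7.49, 6.06 and 6.11 and Ddx60 8.08, 6.69 and 6.56, so replicate 1 exceeded the higher of the others by 1.37 and 1.39. The gap was 0.73 for Oas1a, 0.46 for Bst2, 0.34 for Stat2 and 0.12 for Rsad2, which carry the core as well.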

How the data were processed

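Expression was measured on Affymetrix arrays after whole-transcriptome amplification. Per the submitters' processing notes, the authors ran RMA in Affymetrix Power Tools, and the deposited table gives a log2 level for each probeset on each array. That the scale is log2 follows from the range of the values. RMA scales arrays to each other, which largely removes array-wide differences, and shrinks weak signals. Array medians were 6.34, 6.40 and 6.38. Not given in the sources used here were the build of the probe annotation and a usable software version.

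Of 35556 probesets, 21789 had 1 gene symbol in the platform annotation, 1621 several and 12146 were unlisted. Those with 1 symbol were kept, and a gene with several took its brightest over the 3 control arrays, which gave 19938 genes. Gene identifiers of 19855 matched RefSeq (GRCm38.p6), and 0 symbols differed. Promoter sequences are RefSeq's, matched for 15562 genes, the first listed per gene. A planned summary of protein length was not run.

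"Above background" means over the threshold in each of 3 arrays, "near" means at or below it in each. Only 1 group was used and no test was run; the number of arrays limits precision. SDs have n = 3. Members and the 38 gene lists (1018 entries, 909 measured) were chosen with earlier results of these data known. Named by rule were Kit, Ly6a, Cd34, Mpo and Hlx, the 25 brightest genes, up to 4 brightest and 3 dimmest members per list, and the 15 largest SDs among genes above background, leaving out predicted genes, clones, small RNAs and near-identical families; some of these are not printed, and other list members were named after their values were seen. Alternatives were other thresholds, scalings, probeset choices and leaving out each array. The code was tested on simulated data. Python 3.11.15, pandas 2.3.3, numpy 2.4.6 and matplotlib 3.10.9 were used.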

Additional observations from a re-analysis of the deposited data

Results flagged for a closer look

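Probesets that the platform annotation does not list carried signal as well. Of 12146 such probesets, 4451 (36.6%) were above the sensory receptor threshold in all 3 control arrays, and so were 850 of the 1621 probesets with several symbols (52.4%). They are unnamed here and enter no count of genes.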

How the results depend on the processing

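The threshold was the choice that changed the counts most. The count of genes above background fell from 11078 to 7043 under the 95th percentile of the tissue-restricted genes and to 7702 under the 99th percentile of the sensory receptor genes, while other scalings, other choices of probeset and leaving out 1 array gave 10330 to 11435. The scalings move genes and threshold together, so they could hardly change a count. Leaving out 1 array can only raise it. These limits apply to the list counts below too. Genes near background numbered 7210 to 11118 over all alternatives, and the median SD lay between 0.098 and 0.15, the lowest without replicate 1. Of 266 recomputed list counts, 30 moved by over 1.5 times, all under those 2 other thresholds. Of 270 recomputed levels of named genes, 16 moved by more than 1 SD, all when the median of a gene's probesets replaced the brightest (Baiap2l1 to 11.58). A gene's mean level cannot shift by 1 SD when 1 array is left out, and centring the arrays on their medians leaves it unchanged. Those settings could therefore move no level, and their unmoved levels say nothing about stability. Of 342 recomputed list deviations, 4 moved, when members not above background were left out, and 50, each within 0.043 of 0 at first, changed sign; among both was the mature granulocyte list in replicate 2, from 0.03 to -0.11. No paired analysis was possible because only 1 group was used and no test was run.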

Other observations

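Small RNA genes had signal on these arrays too. Among microRNA precursor genes, 75 of 291 (25.8%) were above the sensory receptor threshold in all 3 control arrays, and among small nucleolar RNA genes 32 of 51 (62.7%). A precursor's probeset can also read the transcript that hosts it, and no mature microRNA was measured.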
